A study of Homo sapiens with 10 samples.

Results

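The nuclear genes of oxidative phosphorylation were followed in T47D cells, an established human luminal breast cancer line, after silencing of *TRPS1* or *CHD4*. Members were taken by gene symbol: every *NDUFA*, *NDUFB*, *NDUFC*, *NDUFS* and *NDUFV* gene, *SDHA* to *SDHD*, every *UQCR* gene, the *COX5* to *COX8* subunit genes and every *ATP5* gene present in both deposited count tables. This gave 81 symbols, of which 2 pseudogenes (*ATP5EP2* and *UQCRBP1*) were left out, and so 79 members of 18262 genes. Complex I had 36 members, complex II 4, complex III 9, complex IV 12 and complex V 18. The rule used symbols and no measured value. RNA-seq was available from 2 libraries each of cells transfected for 72 h with control siRNA, *TRPS1* siRNA or *CHD4* siRNA, and TRPS1 ChIP-seq (2 ChIP and 2 input libraries) from T47D cells is represented by 1 list of 1844 peaks. TRPS1 is an atypical GATA-family repressor, and CHD4 is the chromatin-remodelling ATPase of the NuRD complex. All cells were of the same line, no source used here says that replicates were separate cultures, and p values therefore measure the spread between these libraries, which may be technical. For the *CHD4* knockdown the labels name an siRNA, while the RNA-seq methods of the study speak of an shRNA.

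Oxidative phosphorylation takes place in the inner mitochondrial membrane. Complexes I (NADH dehydrogenase) and II (succinate dehydrogenase) pass electrons to ubiquinone, complex III (the cytochrome bc1 complex) passes them on to cytochrome c, and complex IV (cytochrome c oxidase) passes them to oxygen. Complexes I, III and IV pump protons, and complex V (ATP synthase) uses the proton gradient to make ATP. Most subunits are encoded in the nucleus and a few core subunits in mitochondrial DNA, and no symbol of the latter was in the tables. Assignment by symbol has limits: *NDUFA4* is now named *COXFA4* and counted with complex IV, and *ATP5S* and *ATP5SL*, now *DMAC2L* and *DMAC2*, are not subunits of the enzyme but assembly or coupling factors.

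Total counts per RNA-seq library ranged from 10333138 to 14668358, so that 3 counts, taken as the floor, corresponded to 0.197 to 0.288 counts per 1000000 counts (CPM). Levels below are CPM scaled with TMM factors over all 6 libraries. They are not corrected for gene length, and changes are therefore read between libraries. Sums over members, the share of 1 gene in a sum and the choice of members with the most counts depend on gene length as well as on level. Control replicate 1 stood apart from the other libraries: its Pearson correlations with them, across genes on the log2 CPM scale, were 0.873 to 0.893, against 0.945 to 0.977 for all other pairs. Its ratio to control replicate 2 moved with the length of the gene, with a median log2 ratio of 0.47 for genes spanning under 10 kb and -0.43 for genes over 100 kb, and the tested members were short (median span 11 kb, against 29.5 kb for all genes tested). What part of the results this difference makes up was not tested, and results are therefore also given against each control library alone. *TRPS1* itself was at 1448 and 2274 CPM in the control libraries and at 1169 and 723 CPM after *TRPS1* siRNA (log2 fold change -0.97 ± 0.39, SE, adjusted p = 0.659, edgeR), and *CHD4* was at 301 and 286 CPM in the control libraries and at 96.0 and 54.4 CPM after *CHD4* siRNA (log2 fold change -1.96 ± 0.42, SE, adjusted p = 0.784, edgeR). All 10 luminal markers were above the floor in every group, while their summed level was 12844 to 16131 CPM in the control libraries, 6845 to 7002 CPM after *TRPS1* siRNA and 5793 to 7966 CPM after *CHD4* siRNA. The 11 markers of other cell types summed to 81.1 to 175 CPM, 116 to 149 CPM and 90.4 to 120 CPM in the same order. Of these, *KRT5*, *COL1A2*, *PTPRC*, *CD3E*, *PECAM1* and *CDH5* had at most 3 counts in every library, and *KRT14* at most 6. The others were detected, with up to 2134 counts for *COL1A1*, 429 for *ACTA2*, 180 for *VIM* and 76 for *CD68* in 1 library. The part of this fall of luminal markers in the results below was not tested. In RNA from whole cultures, fewer expressing cells and less RNA per cell cannot be told apart.

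TRPS1 occupied the start of few of these genes. Of the 63 members with an annotated start, 5 (7.94%) had a TRPS1 peak within 5 kb of it, against 3.4% of the 14550 genes of the RNA-seq tables with a start. Within 50 kb the shares were 11.1% and 11.5%. The peak list is a single list for both ChIP libraries, so these shares carry no replicate error. Positions are those of hg38.

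In complex I, *NDUFA11*, an accessory subunit of the membrane arm, had the broadest of the 5 peaks (648 bp, chr19:5903724-5904371, over the start). *NDUFV1*, the subunit that binds NADH, had a peak of 353 bp over its start (chr11:67606767-67607119). The peak of *NDUFB7*, an accessory subunit, lay 2152 bp upstream of the start (chr19:14574218-14574498). In complex IV, the peak of *COX6A1*, the non-muscle form of subunit VIa, ended 8 bp into the gene (chr12:120437842-120438121). In complex V, a peak covered the start of *ATP5F1*, which encodes subunit b of the peripheral stalk (chr1:111449433-111449792). With peaks counted inside the gene or within 5 kb of either end, *ATP5B* was added (the catalytic beta subunit, peak at chr12:56646123-56646508, 139 bp outside the gene). *ATP5B* had no annotated start here and so could not enter the count by start. By gene span, 8.86% of the 79 members had a peak, against 6.46% of 18914 genes of the RNA-seq tables.

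**Figure D1:**
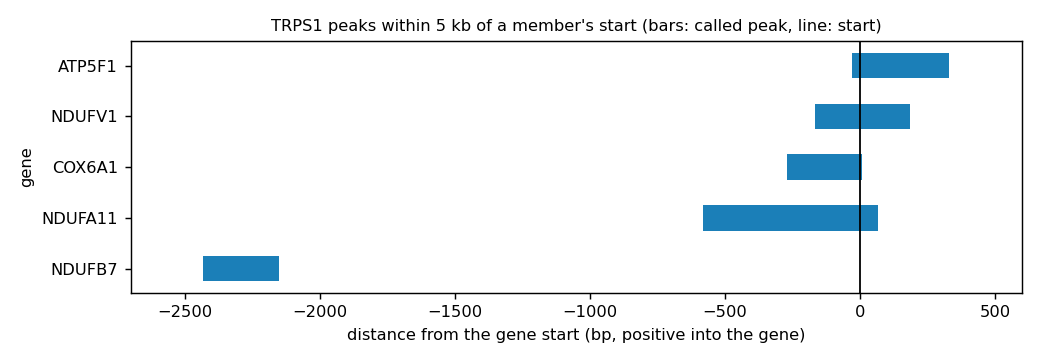
TRPS1 peaks within 5 kb of the start of a nuclear oxidative phosphorylation gene. The horizontal axis is the distance in bp from the start, positive into the gene, and each bar is 1 called peak. Bars of *ATP5F1*, *NDUFV1*, *COX6A1* and *NDUFA11* reach over the start, and that of *NDUFB7* ends 2152 bp before it.

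The 250 bases before the start are shown for the 4 members with an annotated start that a TRPS1 peak covers (RefSeq, GRCh38.p14, strand of the gene). Capitals mark GATA elements (GATA preceded by A or T and followed by A or G), the ETS core CCGGAAG, the NRF1 core GCATGCG and the YY1 core ATGGCGG, each searched on both strands and none contained in another. The stretches of *COX6A1* (chr12:120437863-120438112, plus strand) and *NDUFA11* (chr19:5903791-5904040, minus strand) lie wholly inside the peak, and those of *NDUFV1* (chr11:67606686-67606935, plus strand) and *ATP5F1* (chr1:111449214-111449463, plus strand) partly.
COX6A1: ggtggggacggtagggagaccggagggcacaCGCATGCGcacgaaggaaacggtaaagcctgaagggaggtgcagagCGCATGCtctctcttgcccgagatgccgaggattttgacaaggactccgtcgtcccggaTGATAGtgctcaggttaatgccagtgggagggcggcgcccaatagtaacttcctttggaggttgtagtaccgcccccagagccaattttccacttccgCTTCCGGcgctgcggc
NDUFA11: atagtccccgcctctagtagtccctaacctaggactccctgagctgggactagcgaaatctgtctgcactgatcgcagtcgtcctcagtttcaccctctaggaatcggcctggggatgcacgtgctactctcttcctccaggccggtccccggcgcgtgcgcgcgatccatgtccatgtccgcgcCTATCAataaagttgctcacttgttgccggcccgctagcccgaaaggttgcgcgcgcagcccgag
NDUFV1: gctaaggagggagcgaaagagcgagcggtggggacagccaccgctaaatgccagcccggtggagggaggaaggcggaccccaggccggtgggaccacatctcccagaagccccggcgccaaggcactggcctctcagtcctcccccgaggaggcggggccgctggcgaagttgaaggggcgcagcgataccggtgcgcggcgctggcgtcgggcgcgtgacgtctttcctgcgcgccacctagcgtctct
ATP5F1: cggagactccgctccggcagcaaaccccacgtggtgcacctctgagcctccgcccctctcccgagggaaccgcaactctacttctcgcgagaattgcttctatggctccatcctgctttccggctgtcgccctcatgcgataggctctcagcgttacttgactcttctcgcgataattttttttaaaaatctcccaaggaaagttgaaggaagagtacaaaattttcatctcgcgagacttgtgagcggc

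Among these stretches, that of *COX6A1* held the most marked letters, with NRF1 cores farthest from the start, then a TGATAG element and, nearest to the start, an ETS core in the opposite orientation. *NDUFA11* held 1 GATA element, on the opposite strand, and no searched element was found in the stretches of *NDUFV1* and *ATP5F1*. Over the 300 bases from 250 before to 50 after the start, 20.6% of the 63 members with a start had a GATA element, against 17.7% of 14526 genes of the RNA-seq tables. The ETS core was found in 28.6% of the members and 15.5% of those genes. The YY1 core was found in 28.6% and 8.32%, and the NRF1 core in 19% and 5.51%. ETS factors of the GABP type, NRF1 and YY1 are known regulators of nuclear genes for mitochondrial proteins. A match is a description of letters and not of a bound site.

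The summed level of the members was lower in all 4 knockdown libraries than in both control libraries. It was 7862 and 8229 CPM in the control libraries, 6501 and 6517 CPM after *TRPS1* siRNA and 5902 and 6243 CPM after *CHD4* siRNA. The means were 8045 ± 259, 6509 ± 11.4 and 6072 ± 241 CPM (SD, n = 2), which are differences of -19.1% and -24.5% from control. Scaled by library totals alone, the sums were 7300 and 7805, 6547 and 6827, and 5867 and 6671 CPM, again without overlap. *ATP5B* alone made up 16.2 to 23.2% of the sum, and without it the sums were 6440 and 6320 CPM in the control libraries, 5283 and 5349 CPM after *TRPS1* siRNA and 4759 and 5233 CPM after *CHD4* siRNA.

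By complex, the sums of complexes I, II, III and V did not overlap between control and either knockdown, and that of complex IV did after *TRPS1* siRNA. Complex V differed by -24.2% after *TRPS1* siRNA and -29.8% after *CHD4* siRNA, with 3380 and 3994 CPM in the control libraries, 2816 and 2774 CPM after *TRPS1* siRNA and 2602 and 2572 CPM after *CHD4* siRNA. Complex I was at 1997 and 1937 CPM in the control libraries, 1727 and 1726 CPM after *TRPS1* siRNA and 1549 and 1708 CPM after *CHD4* siRNA (-12.2% and -17.2%). Complex II differed by -13% and -18.3% and complex III by -18.0% and -20.6%. In complex II, 2 of the 4 members were above 0 in each comparison with control. The median log2 fold changes of complex II were -0.01 upon silencing *TRPS1* and -0.17 upon silencing *CHD4*. How far its sums rest on *SDHC* alone was not tested. Complex IV was at 859 and 612 CPM in the control libraries, 559 and 615 CPM after *TRPS1* siRNA and 468 and 577 CPM after *CHD4* siRNA. Control replicate 2 thus lay within the *TRPS1* siRNA pair, where the difference of -20.3% rests on control replicate 1, and above both *CHD4* siRNA libraries (-28.9%). The median log2 fold change of the 10 tested members of complex IV was -0.08 upon silencing *TRPS1* and -0.01 upon silencing *CHD4*. *COX6A1* alone held 198 of the 612 CPM in control replicate 2 and 149 of the 577 CPM in *CHD4* siRNA replicate 2. Sums of complex IV without it were not compared. The mitochondrial ribosomal proteins, another set of nuclear genes for mitochondrial proteins, differed by -22.1% and -26.0%, and the cytoplasmic ribosomal proteins by -0.807% and -6.37% with overlapping libraries.

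**Figure D2:**
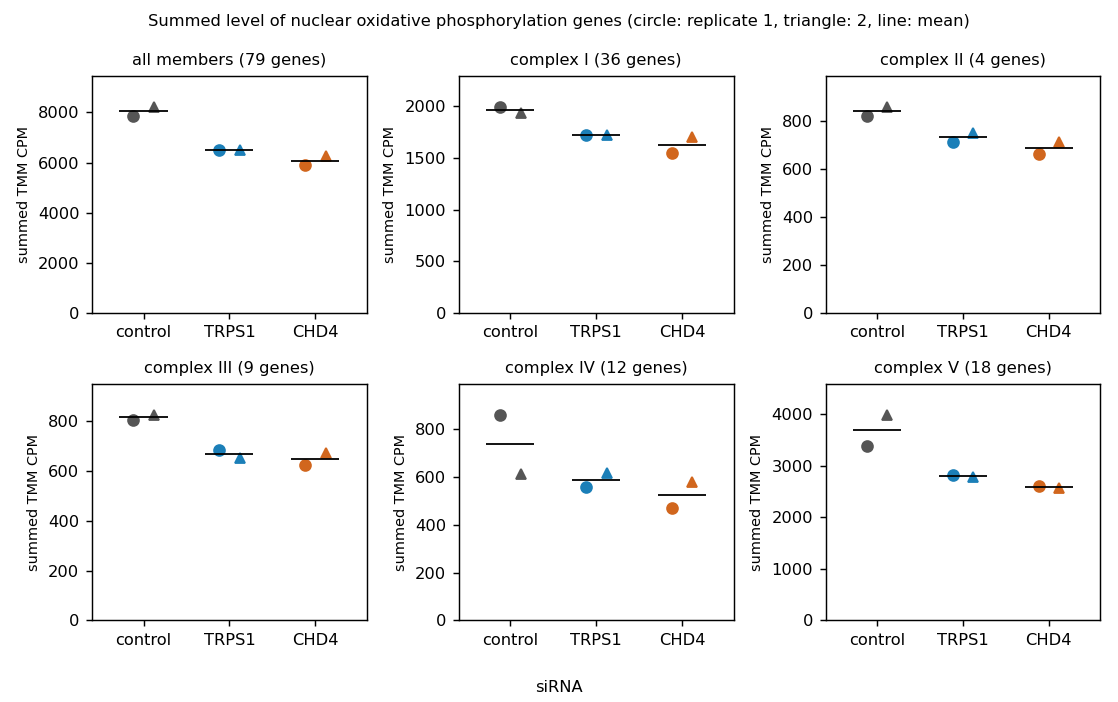
Summed level of all members and of each complex, in TMM-scaled CPM on the vertical axes, for control, *TRPS1* and *CHD4* siRNA on the horizontal axes. Circles are replicate 1, triangles replicate 2 and lines the mean of 2 libraries; for complex IV the control triangle (612 CPM) lies beside the *TRPS1* siRNA libraries.

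Each gene was then tested in edgeR's quasi-likelihood fit over all genes with more than 2 CPM in at least 2 of the 4 libraries compared. Of the 79 members, 74 were tested in each comparison. The other 5 (*ATP5L2*, *COX6B2*, *COX7A1*, *NDUFA4L2* and *UQCRHL*) were too low.

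Upon silencing *TRPS1*, 3 members were lower and 0 higher at an unadjusted p under 0.05, against 3.97% of all 12921 genes lower and 3.01% higher. The 3 were *UQCR10*, *UQCRC1* and *COX6A1*. None passed after Benjamini-Hochberg adjustment over all genes in edgeR, where 0% of all genes passed, and no member passed with DESeq2. The median log2 fold change of the members was -0.21, against -0.02 for all genes, and 52 of 74 were below 0, against 51.5% of all genes. In 25 members both *TRPS1* siRNA libraries lay below both control libraries and in 10 both lay above, which is 33.8% and 13.5% of the tested members, against 21.6% and 22.5% of all genes. With library totals alone in place of TMM the median of all genes moved to 0.10 and that of the members to -0.08, which left the distance between them at -0.18 in both scalings.

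Upon silencing *CHD4*, 3 members were lower and 0 higher at an unadjusted p under 0.05, against 3.17% of all 12918 genes lower and 2.79% higher. These were *COX5A*, *NDUFS8* and *COX6A1*, again without any passing the adjustment, as 0% of all genes did. The median log2 fold change of the members was -0.31 and that of all genes -0.02, and 56 of 74 members were below 0, against 51.5% of all genes. In 31 members (41.9%) both *CHD4* siRNA libraries lay below both control libraries, against 20% of all genes, and in 2 (2.7%) both lay above, against 19.8%. With library totals alone the medians were -0.17 for the members and 0.11 for all genes. The *CHD4* siRNA libraries gave different medians: without *CHD4* siRNA replicate 1 the median of the members was -0.17, with 46 below and 28 above 0, and without *CHD4* siRNA replicate 2 it was -0.47, with 59 below and 14 above 0. Both knockdowns were compared with the same 2 control libraries, so their values are given side by side and not as separate support for each other.

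In complex I, 9 of 35 tested members were above 0 and 26 below in each comparison with control. *NDUFS8*, a core subunit that carries iron-sulfur clusters, was at 134 and 32.6 CPM in the control libraries, 28.3 and 27.6 CPM after *TRPS1* siRNA and 20.3 and 26.7 CPM after *CHD4* siRNA. The groups did not overlap, but control replicate 1 was far above all the others. The log2 fold change was -1.57 ± 0.66 (SE, adjusted p = 0.659, edgeR) after *TRPS1* siRNA and -1.82 ± 0.66 (adjusted p = 0.792, edgeR) after *CHD4* siRNA. Without control replicate 1 it was -0.22 and -0.45.

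*NDUFS6*, an accessory subunit that binds zinc, had the largest positive value in complex I at low levels, with 0.955 and 2.27 CPM in the control libraries and 5.0 and 4.54 CPM after *TRPS1* siRNA (log2 fold change 1.56 ± 0.68, adjusted p = 0.659, edgeR). Its *CHD4* siRNA libraries disagreed, at 0.935 and 5.79 CPM. *NDUFS6* overlaps *MRPL36* in the annotation, and reads of such pairs may be shared.

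The members of complex I with a peak near the start were below the control mean and did not pass the unadjusted threshold. *NDUFB7* was at 34.7 and 15.5 CPM in the control libraries, 13.8 and 11.4 CPM after *TRPS1* siRNA and 9.54 and 14 CPM after *CHD4* siRNA, without overlap. *NDUFA11* was at 37.6 and 12.6 CPM, 13.5 and 13 CPM, and 9.35 and 15.3 CPM in the same order, so that control replicate 2 lay among the knockdown libraries. *NDUFV1* was at 186 and 151 CPM, 146 and 138 CPM, and 115 and 120 CPM, without overlap and with log2 fold changes of -0.25 ± 0.32 and -0.52 ± 0.36. *NDUFB5*, the member of complex I with the most counts, was at 147 and 229 CPM in the control libraries, and its 4 knockdown libraries lay between them at 200 to 218 CPM.

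Complex II, which also belongs to the citric acid cycle, had 4 members and 2 of them on either side of 0 in each comparison with control. *SDHC*, a membrane anchor, was at 372 and 319 CPM in the control libraries, 241 and 238 CPM after *TRPS1* siRNA and 242 and 199 CPM after *CHD4* siRNA. It did not overlap control in either knockdown, with log2 fold changes of -0.52 ± 0.31 (adjusted p = 0.667, edgeR) and -0.64 ± 0.35 (adjusted p = 0.792, edgeR). *SDHD*, the other anchor, was at 72.0 and 221 CPM in the control libraries and at 157 to 202 CPM in the knockdown libraries, all between both controls. The flavoprotein gene *SDHA* was at 319 and 259 CPM, 238 and 273 CPM, and 181 and 235 CPM. The iron-sulfur protein gene *SDHB* was at 59.7 and 60.4 CPM in the control libraries, 67.9 and 82.3 CPM after *TRPS1* siRNA and 51.3 and 79.3 CPM after *CHD4* siRNA.

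In complex III, 7 of 8 tested members were below 0 in each comparison with control, and *UQCRB*, a small subunit at the ubiquinone site, was the exception. *UQCR10*, a small subunit, was at 45.1 and 26.0 CPM in the control libraries, 15.6 and 16.5 CPM after *TRPS1* siRNA and 16.4 and 19.9 CPM after *CHD4* siRNA, without overlap. It passed the unadjusted threshold upon silencing *TRPS1*, with a log2 fold change of -1.14 ± 0.42 (SE, adjusted p = 0.659, edgeR), and its value upon silencing *CHD4* was -0.96 ± 0.45 (adjusted p = 0.792, edgeR). *UQCRC1*, a core subunit, was at 194 and 160 CPM in the control libraries, 97.8 and 96.5 CPM after *TRPS1* siRNA and 94.9 and 128 CPM after *CHD4* siRNA. Its control libraries were closer to each other than those of *UQCR10*, and no knockdown library reached them. It passed the unadjusted threshold upon silencing *TRPS1*, at -0.86 ± 0.32 (adjusted p = 0.659, edgeR), and its value upon silencing *CHD4* was -0.66 ± 0.37 (adjusted p = 0.792, edgeR). *UQCRC2*, the other core subunit and the member of complex III with the most counts, was at 314 and 410 CPM in the control libraries and at 329 to 365 CPM in the knockdown libraries, between the controls. *UQCRB* was at 25.2 and 20.8 CPM in the control libraries, 39.3 and 34.1 CPM after *TRPS1* siRNA and 19.9 and 33.2 CPM after *CHD4* siRNA.

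In complex IV, 5 of 10 tested members were below 0 upon silencing *TRPS1* and 6 upon silencing *CHD4*. *COX6A1*, whose promoter stretch is printed above, was at 392 and 198 CPM in the control libraries, 132 and 159 CPM after *TRPS1* siRNA and 129 and 149 CPM after *CHD4* siRNA. No knockdown library reached a control library, and the control libraries differed 2-fold from each other. It passed the unadjusted threshold in both comparisons, with log2 fold changes of -1.02 ± 0.42 upon silencing *TRPS1* (adjusted p = 0.659, edgeR) and -1.08 ± 0.43 upon silencing *CHD4* (adjusted p = 0.792, edgeR). Without control replicate 1 the values were -0.44 (adjusted p = 0.251, edgeR) and -0.49 (adjusted p = 0.389, edgeR).

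*COX5A*, the subunit that binds the thyroid hormone T2, was at 38.8 and 14.4 CPM in the control libraries, 14.1 and 15.5 CPM after *TRPS1* siRNA and 8.89 and 7.72 CPM after *CHD4* siRNA. Control replicate 2 lay within the *TRPS1* siRNA pair and above both *CHD4* siRNA libraries. Upon silencing *CHD4* it passed the unadjusted threshold at -1.67 ± 0.57 (adjusted p = 0.792, edgeR), while the value without control replicate 1 was -0.77 (adjusted p = 0.368, edgeR). Upon silencing *TRPS1* its value was -0.84 ± 0.54 (adjusted p = 0.675, edgeR).

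Among the pairs of complex IV genes with tissue-specific forms, *COX7A1* and *COX6B2* were near or under the limit of detection, at 0 to 0.374 CPM and 0.378 to 1.03 CPM in the 6 libraries. Their widely expressed partners were measured in every library. *COX7A2* was at 37.4 and 60.6 CPM in the control libraries with all knockdown libraries between them, and *COX6B1* was at 62.2 and 39.2 CPM with knockdown libraries of 32.9 to 48.1 CPM. *COX7B* was at 23.5 and 48.3 CPM in the control libraries and 27.9 to 51.3 CPM in the others. *COX7B2*, the form typical of testis, stayed low, at 0.881 and 2.19 CPM in the control libraries, 2.21 and 1.51 CPM after *TRPS1* siRNA and 3.46 and 3.54 CPM after *CHD4* siRNA. *COX8A*, the widely expressed subunit VIII, was at 163 and 55.1 CPM in the control libraries and 41.1 to 83.5 CPM in the others, around control replicate 2. *COX6C* had the most positive value of complex IV upon silencing *TRPS1* (0.61 ± 0.38, adjusted p = 0.674, edgeR), with 49.3 and 80.7 CPM in the control libraries and 89.6 and 109 CPM after *TRPS1* siRNA.

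**Figure D3:**
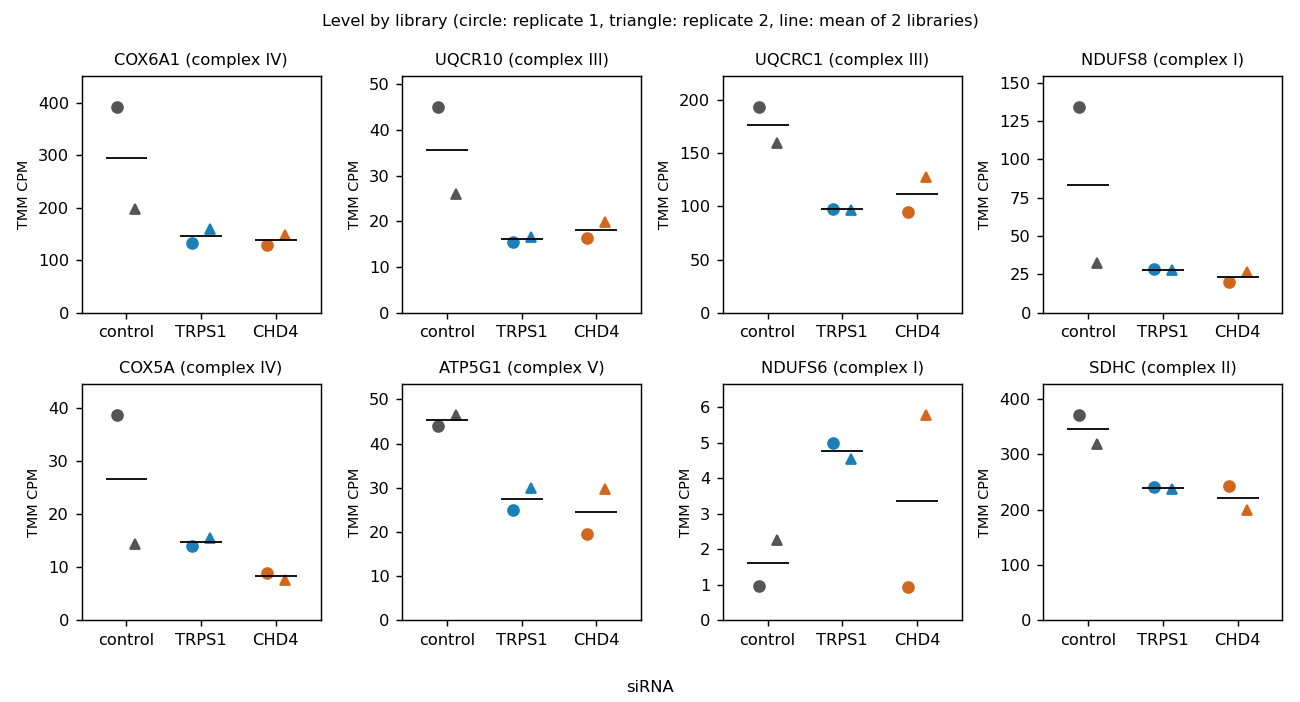
Level of 8 members in each library, in TMM-scaled CPM on the vertical axes from 0, for control, *TRPS1* and *CHD4* siRNA on the horizontal axes. Circles are replicate 1, triangles replicate 2 and lines the mean of 2 libraries. For *NDUFS8*, *COX5A* and *COX6A1* control replicate 1 stands far above control replicate 2, whereas both control libraries of *UQCRC1* (194 and 160 CPM) and *SDHC* (372 and 319 CPM) lie above every knockdown library.

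In complex V, 12 of 17 tested members were below 0 upon silencing *TRPS1* and 15 upon silencing *CHD4*, and 0 passed an unadjusted p of 0.05. *ATP5B* was at 1423 and 1909 CPM in the control libraries, 1218 and 1169 CPM after *TRPS1* siRNA and 1143 and 1010 CPM after *CHD4* siRNA. All knockdown libraries lay below both controls, with log2 fold changes of -0.48 ± 0.31 (adjusted p = 0.677, edgeR) and -0.62 ± 0.35 (adjusted p = 0.792, edgeR). *ATP5F1*, which has a peak at its start, was at 161 and 163 CPM in the control libraries, 125 and 155 CPM after *TRPS1* siRNA and 109 and 148 CPM after *CHD4* siRNA, also without overlap. Its log2 fold changes, -0.21 ± 0.32 and -0.33 ± 0.37, were smaller than their SE.

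The 3 genes for the identical mature subunit c, the proton-carrying ring of the enzyme, differed from each other. *ATP5G1* was at 43.9 and 46.6 CPM in the control libraries, 24.9 and 30.0 CPM after *TRPS1* siRNA and 19.5 and 29.8 CPM after *CHD4* siRNA. Its control libraries lay close together, and its log2 fold changes of -0.72 ± 0.35 (adjusted p = 0.659, edgeR) and -0.87 ± 0.41 (adjusted p = 0.792, edgeR) did not pass the test. *ATP5G2* was at 263 and 207 CPM in the control libraries and at 207 to 252 CPM in the others. *ATP5G3* was at 44.6 and 127 CPM in the control libraries, and its knockdown libraries lay between them at 78.9 to 97.0 CPM. How far reads of these 3 similar genes could be assigned to the wrong copy was not tested.

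*ATP5D*, the delta subunit of the central stalk, was at 134 and 35.3 CPM in the control libraries, and its 4 knockdown libraries lay at 36.9 to 38.8 CPM. *ATP5J2*, subunit f, was at 62.8 and 21.2 CPM in the control libraries, 16.5 and 21.8 CPM after *TRPS1* siRNA and 14.5 and 19.8 CPM after *CHD4* siRNA. For both genes the distance from control rests on control replicate 1. *ATP5S* showed the reverse, with 2.35 and 12.3 CPM in the control libraries and 8.94 to 13.3 CPM in the others.

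Compared directly, without control libraries, *CHD4* siRNA and *TRPS1* siRNA differed in 2 members at an unadjusted p under 0.05. Of these, 1 was lower and 1 higher after *CHD4* siRNA, against 7.33% and 8.07% of all 13143 genes. This fit did not pair same-numbered libraries, although those of both knockdowns deviated together (r = 0.638 over all genes). With a replicate block the count of members was larger, as given in the last section. *COX5A* had a log2 fold change of -0.83 ± 0.23 after *CHD4* siRNA (adjusted p = 0.190, edgeR), with both libraries of each group on their own side. *COX7B2* was higher by 0.93 ± 0.37 (adjusted p = 0.306, edgeR) at its low level, where its libraries held few counts. The median over the 74 members was -0.10 and that of all genes 0.00, and 51 members were below 0, against 50.2% of all genes. Both *CHD4* siRNA libraries lay below both *TRPS1* siRNA libraries in 16 members and above them in 6, which is 21.6% and 8.11% of the tested members, against 24.1% and 22.8% of all genes. *CHD4* siRNA replicate 1 decided the sign of the median, which was 0.03 without it. It was the lowest of the 6 libraries for 35 of 74 members, more often than control replicate 1 (19) or *CHD4* siRNA replicate 2 (10), and the highest for 0. For example, *NDUFA7*, an accessory subunit of complex I, was at 7.71 and 6.28 CPM in the control libraries, 6.44 and 5.06 CPM after *TRPS1* siRNA and 1.22 and 4.66 CPM after *CHD4* siRNA. The share of all genes lowest in *CHD4* siRNA replicate 1 is not given here. Log2 deviations in this library were taken from each gene's mean over the 6 libraries. Their median was -0.30 for the members, -0.28 for the mitochondrial ribosomal proteins and 0.01 for all genes.

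**Figure D4:**
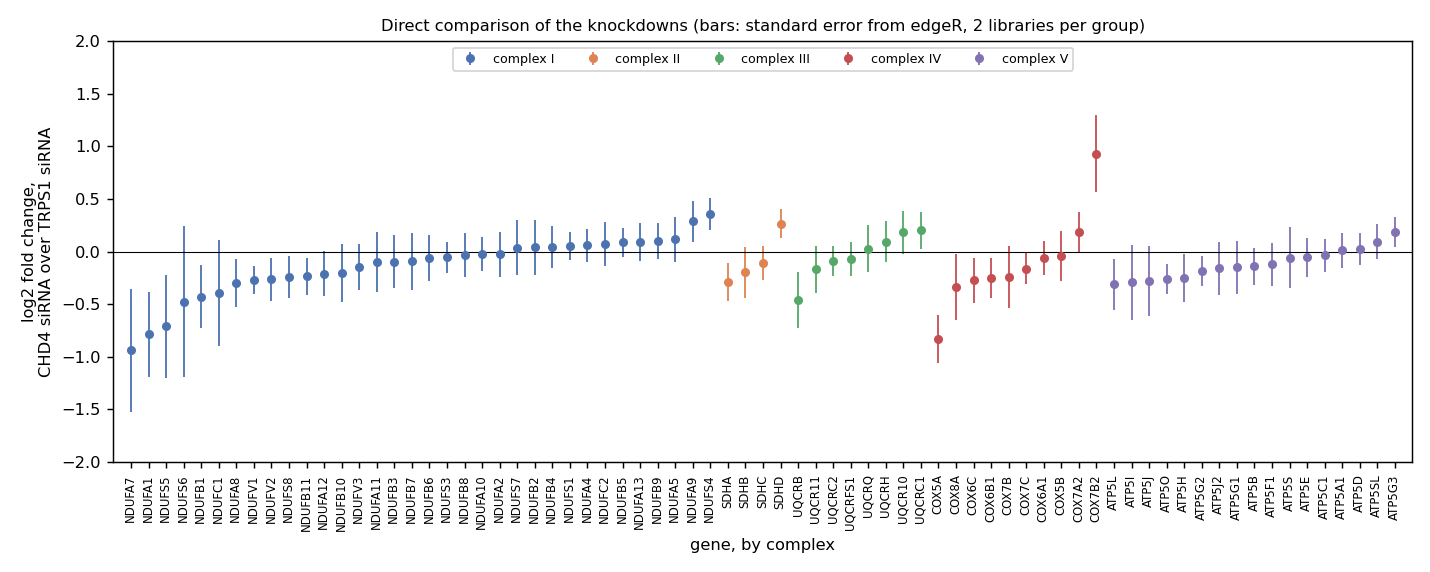
Log2 fold change of *CHD4* siRNA over *TRPS1* siRNA on the vertical axis for 73 tested members, ordered by complex on the horizontal axis. Points are edgeR estimates from 2 libraries per group and bars their standard errors; most points lie below 0, and *COX5A* (-0.83) and *COX7B2* (0.93) stand out from complex IV.

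Because the control libraries differed, each knockdown was also set against each control library alone, where the spread comes from the knockdown pair and the lone control library is assumed to vary like it. The control libraries were over 2-fold apart in 21 of 74 members (28.4%, against 32.7% of all genes), with 14 higher and 7 lower in control replicate 1. The *TRPS1* siRNA libraries were over 2-fold apart in 0 members (0%, against 2.89% of all genes). The *CHD4* siRNA libraries were so in 6 (8.11%, against 5.04% of all genes). The log2 ratio of the control libraries ranged from -2.17 (*ATP5S*) to 2.03 (*NDUFS8*), and its median was 0.35 in complex V, 0.27 in complex III and -0.25 in complex IV.

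Against control replicate 1 alone, 21 members fell and 10 rose upon silencing *TRPS1* at an adjusted p under 0.05 (edgeR), against 22.6% and 24.8% of all 12805 genes. *NDUFS8* had the smallest p of them (log2 fold change -2.26, adjusted p = 0.000775, edgeR). Against control replicate 2 alone, 0 members passed the adjustment, where 1.35% of all genes were lower and 0.923% higher. At an unadjusted p under 0.05, 12 were lower and 7 higher, against 10.9% and 11.7% of all 12781 genes. The smallest p was then that of *NDUFS5* (1.46, adjusted p = 0.0512, edgeR). The median log2 fold change of the members was -0.25 against control replicate 1 and -0.16 against control replicate 2, while those of all genes were 0.03 and 0.02.

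Upon silencing *CHD4*, 15 members fell and 5 rose at an adjusted p under 0.05 against control replicate 1 alone (edgeR), against 14.4% and 15.9% of all 12785 genes. Against control replicate 2 alone 0 members and 0% of all genes passed the adjustment, and at an unadjusted p under 0.05, 5 were lower and 0 higher, against 6.24% and 8.37% of all 12792 genes. The medians of the members were -0.41 and -0.29 and those of all genes 0.03 and 0.01. The median was thus below that of all genes against either control library and in both knockdowns.

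Which side of 0 a member took often turned with the control library. Upon silencing *TRPS1*, 32 of 73 members (43.8%) were below 0 against both control libraries, beside 27.5% of all genes, 12 (16.4%) were above 0 against both, beside 30.6%, and 39.7% changed sign, beside 42%. Upon silencing *CHD4*, 37 of 73 (50.7%) were below 0 against both, beside 26.7% of all genes, 6 (8.22%) were above 0 against both, beside 29.7%, and 41.1% changed sign, beside 43.7%. The fits share their knockdown libraries, and these shares are a description.

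Few members passed an unadjusted p of 0.05 against both control libraries. Upon silencing *TRPS1*, *UQCR10* (-1.49 and -0.69), *UQCRC1* (-0.99 and -0.71) and *ATP5G1* (-0.67 and -0.75) were lower against control replicates 1 and 2, which is 4.11% of the members, beside 4.76% of all genes. *NDUFS6* was higher (2.31 and 1.07) at its low level. The share higher against both at the p threshold is not given here. Without a threshold on p, 16.4% of the members were above 0 against both, beside 30.6% of all genes. *ATP5G3* (0.86 and -0.65) and *ATP5J* (-0.73 and 0.82) changed sign with the control library, which is 2.74% of the members, beside 2.55% of all genes. Upon silencing *CHD4*, *ATP5G1* was lower against both (-0.82 and -0.90), which is 1.37% of the members, beside 2.28% of all genes. *NDUFB3* changed sign (0.88 and -0.72), again 1.37%, beside 1.06%, and 0% of the members were higher against both, beside 3.59%. *ATP5J* encodes coupling factor 6 and *NDUFB3* an accessory subunit of complex I, and both were named here after their values were seen.

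**Figure D5:**
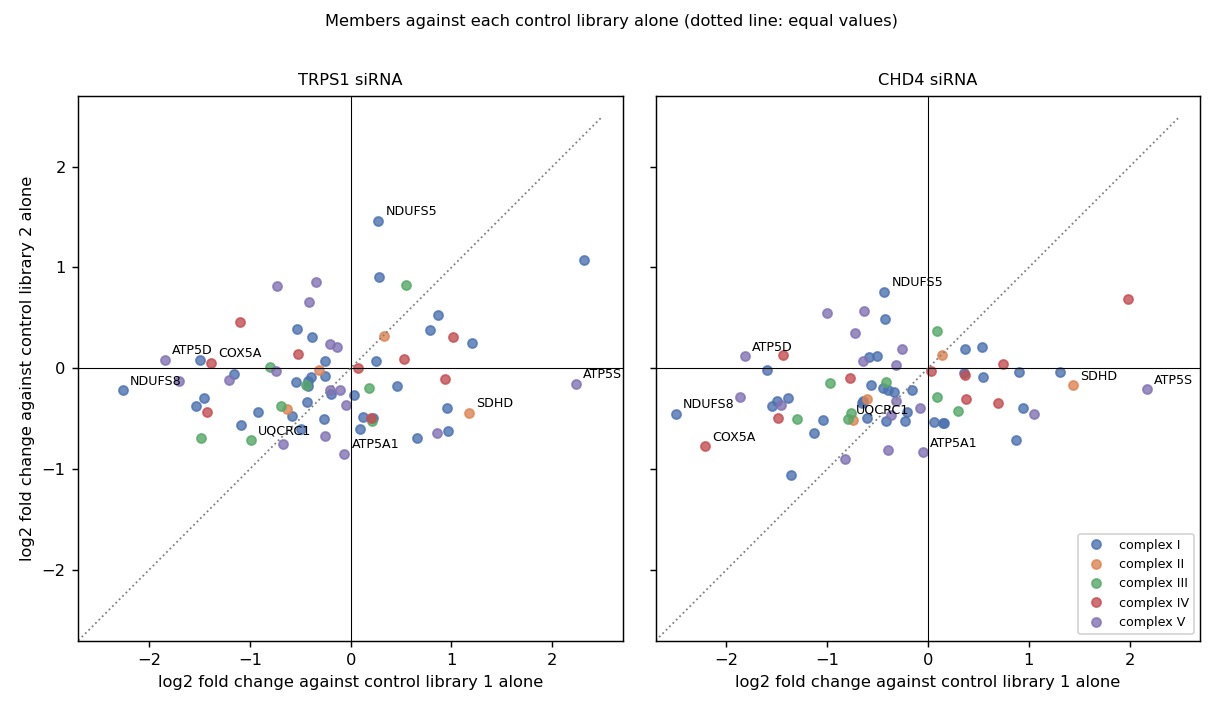
Log2 fold change of each member against control replicate 1 alone (horizontal axis) and control replicate 2 alone (vertical axis) for *TRPS1* siRNA and *CHD4* siRNA, coloured by complex. Both axes share the same knockdown libraries, and points far from the dotted line of equal values are genes whose control libraries differ, such as *NDUFS8* (-2.26 and -0.22 upon silencing *TRPS1*) and *ATP5S* (2.23 and -0.15).

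Genes around the enzyme were read from lists. Beside the counts below, 3.97% of all genes were lower and 3.01% higher upon silencing *TRPS1* at an unadjusted p under 0.05. Upon silencing *CHD4* these shares were 3.17% and 2.79%. Of 8 tested subunit genes outside the symbol rule, 0 passed an unadjusted p of 0.05 upon silencing *TRPS1* and 1 was lower upon silencing *CHD4*. This was *CYC1*, the cytochrome c1 of complex III, with 320 and 82.8 CPM in the control libraries, 77.6 and 75.1 CPM after *TRPS1* siRNA and 60.7 and 74.0 CPM after *CHD4* siRNA (-1.57 ± 0.62, adjusted p = 0.792, edgeR), where control replicate 1 again stands alone. Of 18 complex I assembly factors (with *ATP5SL*, itself a member), 0 passed in either comparison with control, with medians of -0.01 and -0.19. Among them *NUBPL*, which inserts iron-sulfur clusters, had the smallest p upon silencing *TRPS1* (0.67 ± 0.52) and *FOXRED1* upon silencing *CHD4* (-0.57 ± 0.40). Of 33 tested assembly factors of complexes II to V, 1 was lower in each comparison with control at that threshold. *UQCC2*, a complex III factor, was lower upon silencing *TRPS1* (79.4 and 38.2 CPM in the control libraries, 24.6 and 23.2 CPM after *TRPS1* siRNA, log2 fold change -1.30 ± 0.45, adjusted p = 0.659, edgeR), and *COA4*, a complex IV factor, upon silencing *CHD4* (330 and 88.4 CPM in the control libraries, 54.3 and 70.0 CPM after *CHD4* siRNA, -1.74 ± 0.61, adjusted p = 0.792, edgeR). Compared directly, *ACAD9*, a complex I factor, was lower after *CHD4* siRNA (-0.55 ± 0.17, adjusted p = 0.223, edgeR) and *COA7* higher (1.07 ± 0.29, adjusted p = 0.19, edgeR).

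Among 18 tested regulators of mitochondrial genes, *PPARGC1A*, the coactivator PGC-1alpha that drives mitochondrial biogenesis, was higher in both knockdowns at an unadjusted p under 0.05. It was at 1.98 and 2.72 CPM in the control libraries, 9.42 and 7.04 CPM after *TRPS1* siRNA and 19.4 and 6.67 CPM after *CHD4* siRNA. All knockdown libraries lay above both controls, at low levels, with log2 fold changes of 1.80 ± 0.56 (adjusted p = 0.659, edgeR) and 2.47 ± 0.69 (adjusted p = 0.792, edgeR). *MYC*, a proliferation factor that also acts on mitochondrial genes, was at 138 and 50.1 CPM in the control libraries, 43.4 and 38.0 CPM after *TRPS1* siRNA and 31.7 and 28.6 CPM after *CHD4* siRNA. It passed the unadjusted threshold upon silencing *CHD4* at -1.63 ± 0.53 (adjusted p = 0.792, edgeR). The other regulators did not pass the unadjusted threshold in either comparison with control, and the medians of the list were -0.03 and 0.12.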

How the data were processed

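RNA-seq libraries of T47D cells (control, *TRPS1* and *CHD4* siRNA, 2 each, 6 in all, rRNA-depleted total RNA) and 1 TRPS1 peak list from 4 ChIP-seq libraries were used. Reads were trimmed by the authors, mapped with STAR and assigned to genes with HTSeq (version 0.9.0, per the submitters' processing notes), and the authors deposited raw counts in 2 tables that share the control libraries. The annotation and strand setting of the counting are not given in the sources used here. For ChIP-seq the authors used BWA and then MACS2 (version 2.1.1), and the deposited list holds only positions (hg38), which were converted to 1-based starts.

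A gene entered the test when 2 or more of the 4 libraries compared exceeded 2 CPM. Tests were run in edgeR (version 4.0.16, R 4.3.3) with TMM factors, the quasi-likelihood F-test and a prior count of 0.125, with Benjamini-Hochberg adjustment over all genes tested. The SE was obtained as |log2 fold change| over the root of the F statistic. The fit was also run on simulated counts with the same dispersion for all genes and no outlying control library. That run cannot show how the fit behaves with control libraries as different as these, and nothing is concluded from it. With 2 libraries against 2, an exact permutation test of a single value cannot go below p = 0.3333 (two-sided), and so none was run. Floors of 3 counts cover counting error only. Samples were grouped by their labels, and no batch is given in these. Replicate numbers are shared across groups and were not taken as pairs, since no label ties them to a batch. The correlations of their deviations over all genes were 0.0746 for control with *TRPS1* siRNA and 0.0170 for control with *CHD4* siRNA. Between *TRPS1* and *CHD4* siRNA the correlation was 0.638, so same-numbered knockdown libraries deviated together. The main fit of the direct comparison does not take this into account.

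Starts, spans, overlaps and promoter sequences come from RefSeq (GRCh38.p14), where all 79 members matched by symbol or synonym and 63 had a start. By span, 24 members overlap another protein-coding or lncRNA gene, and reads of such pairs may be shared. Members with most counts per complex, with an unadjusted p under 0.05, with the largest rise or fall per complex, of tissue-specific pairs or with a peak near the start were named, as were *TRPS1*, *CHD4* and the gene of each list with the smallest p. The values of 1 member are included in sums and counts but not reported here. A gene outside this rule is marked, or shows a control difference or a peak. The members and lists were chosen with earlier results of these data known. Alternatives were DESeq2 (version 1.42.0), the likelihood ratio test, library totals alone or RLE size factors, other filters, a prior count of 2, all 6 libraries in one fit, a replicate block, leaving out each library and other distances to peaks. Alternatives for the fits with 1 control library and peaks by gene span were added after seeing the data.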

Additional observations from a re-analysis of the deposited data

How the results depend on the processing

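Counts of members at an unadjusted p under 0.05 depended on the test and filter. The shares of all genes called under the same settings are not given beside the counts below. A larger count of members therefore cannot be read as particular to the members. For the fits against 1 control library alone, shares of all genes are given in the results above. Upon silencing *TRPS1* the 3 became 5 with the likelihood ratio test, 6 with DESeq2, 7 when low counts were not filtered and 7 with all 6 libraries in one fit, and 0 to 35 when 1 library was left out (0 without either *TRPS1* siRNA library, 19 without control replicate 1, 35 without control replicate 2). Upon silencing *CHD4* the 3 became 7 with DESeq2, 9 without a filter and 13 with all 6 libraries, and 0 to 30 when 1 library was left out. At an adjusted p under 0.05, leaving out 1 library gave 0 to 31 members for *TRPS1* and 0 to 20 for *CHD4*, and no filter gave 1 for *CHD4*. The direct comparison gave 1 member with DESeq2, without a filter and with over 2 CPM in every library, 0 with all 6 libraries in one fit, and 0 to 15 when 1 library was left out.

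With the replicate number as a block the direct comparison gave 18 members, 11 of them at an adjusted p under 0.05 (among them *NDUFS5*, *COX5A*, *NDUFA1*, *UQCRB*, *COX8A*, *NDUFA7*, *NDUFS4*, *ATP5L*, *COX7B2* and *SDHA*). The share of all genes called with the block is not given here, so these counts cannot be read as particular to the members. Without the block 7.33% of all genes were lower and 8.07% higher at an unadjusted p under 0.05. Same-numbered *TRPS1* and *CHD4* siRNA libraries deviated together (r = 0.638 over all genes, 0.265 over members), which the labels do not explain. The block left the other 2 counts within 1.5 times.

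The members' median was -0.0803 with library totals alone upon silencing *TRPS1*. Against control replicate 1 alone it was -0.11 with library totals and -0.23 without a filter, and against control replicate 2 alone -0.17 with RLE size factors, -0.0519 with library totals and -0.19 without a filter. The median of the direct comparison ranged from -0.182 to 0.0338 when 1 library was left out and turned to 0.0338 without *CHD4* siRNA replicate 1. Upon silencing *CHD4* the median of -0.305 was -0.173 with library totals alone and ranged from -0.473 (without *CHD4* siRNA replicate 2) to -0.171 (without *CHD4* siRNA replicate 1) when 1 library was left out, and against control replicates 1 and 2 alone it was -0.264 and -0.177 with library totals. In the comparisons with control the medians stayed below 0 under all alternatives run. The cause of the differences was not tested. With 2 libraries a group, changes as large as those between the control libraries could not be told from spread, and members under about 1 CPM rest on few counts.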
